A study of Mus musculus with 7 samples.

Results

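The genes of DNA replication and DNA repair described here are 46 listed genes of the 56941 genes in the count tables, and all 46 were present in the tables of all 4 animals. Membership was set by a list of symbols and by no threshold on a value. By role they comprised 14 genes of origin licensing and firing, 9 of DNA synthesis, the sliding clamp and nucleotide supply, 4 of replication-linked chromatin, end-processing and turnover, 5 checkpoint kinases and mediators, 7 of homologous recombination and end joining, 4 Fanconi anemia genes, and 3 others (Parp1, Mgmt and Slfn9). Their transcripts were counted in single nuclei of fresh-frozen small cell lung cancer (SCLC) tumors of 4 male mice, taken at endpoint. RP1 and RP2 carried conditional (fl/fl) alleles of Rb1 and Trp53. RPC1 and RPC2 carried these and in addition lacked Casp8, which the labels write as Casp8-/- and the methods of the study as a conditional allele. All 4 animals had inhaled adenovirus with a Cre recombinase under the CMV promoter, which is active in many cell types, so deletion was not limited to 1 cell type, and no animal with intact Rb1 and Trp53 was compared. The mice were young adults when they inhaled the virus and were sampled some months later, when the experimental endpoint was reached. Each of the 7 libraries pooled nuclei of all 4 animals, so the animal was the replicate (n = 2 per genotype). Values of the 4 animals are given below in the order RP1, RP2, RPC1, RPC2, in CPM (transcripts scaled to 1000000 transcripts of the nuclei summed). In the comparison of genotypes the totals were scaled by TMM, so those CPM differ slightly from the unscaled CPM of the other comparisons.

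Replication begins when the origin recognition complex and Cdc6 and Cdt1 load the Mcm helicase on DNA, after which Cdc45 and the GINS complex start it and the polymerases copy both strands on the Pcna clamp. Repair genes act on the breaks, gaps and crosslinks that arise beside the fork: Brca1, Brca2 and their partners guide homologous recombination, Polq joins ends by short homologies, and the Fanconi proteins unhook crosslinks. Many of these genes are switched on at the start of S phase by E2F factors, which the Rb1 protein holds back. SCLC is known for a high rate of division.

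The 4 animals gave 8363, 8874, 10853 and 10164 nuclei after filtering, from 32299909, 35420582, 72446861 and 57515082 transcripts in the deposited tables. No barcode was shared between animals. The share of transcripts from the ribosomal RNA gene Rn18s-rs5 was 10.002%, 8.51%, 3.13% and 5.38%, so depth and ribosomal share separated the genotypes as the labels do and cannot be told apart from them. Nuclei were named from marker genes: 32211 of them fell into clusters with neuroendocrine markers and are called tumor-like (7135, 7257, 9139 and 8680 per animal). Most of these clusters belonged to 1 animal each: the largest share of a single animal per cluster ranged from 79.9% to 99.8%. Summed CPM of the 14 neuroendocrine markers in tumor-like nuclei was 5317, 4517, 5684 and 5963. The 10 endothelial markers summed there to 40.8 to 67.3 CPM and the 11 macrophage or monocyte markers to 30.7 to 43.6 CPM. Highest of the lists of other cell types were the 10 T or NK cell markers, at 1044.5, 887.4, 1420.5 and 987.4 CPM. The source of this RNA was not tested. Casp8 was counted at 58.6, 61.0, 88.9 and 66.3 CPM in tumor-like nuclei (TMM-scaled, RPC over RP on the log2 scale 0.38 ± 0.19, SE, adjusted p = 0.395, edgeR). Counts per gene do not resolve the deleted exons, so neither this value nor those of Rb1 and Trp53 checks the labels, and RP and RPC mean the animals so labelled.

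So that it could be seen how the genes moved with the cell cycle, every tumor-like nucleus with enough transcripts was thinned to 1000 and marked by 2 cell cycle lists from which the 46 genes had been taken out. A nucleus with at least 3 transcripts of the 25 S-phase genes and more of these than of the 53 G2/M genes was called S-marked, the converse G2/M-marked, and a nucleus with 0 of either list unmarked. The 4 animals had 518, 582, 940 and 485 S-marked, 3854, 3625, 5363 and 5768 G2/M-marked and 134, 201, 199 and 158 unmarked nuclei. Before thinning, the medians were 2249 to 2924.5 transcripts in S-marked, 2084.5 to 2880 in unmarked and 2714 to 3932 in G2/M-marked nuclei. Neuroendocrine markers summed to 4684 to 6328 CPM in S-marked and 5403 to 6525 CPM in unmarked nuclei. The marks stand for RNA counts and not for measured DNA content.

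S-marked nuclei held far more replication and repair transcripts than unmarked nuclei. A mean of 4.53, 4.45, 5.15 and 5.06 member transcripts was counted per S-marked nucleus, against 1.75, 1.91, 2.25 and 1.72 per unmarked nucleus at the same depth. Of the 46 genes, 45 were tested (Mcm8 was filtered out for low counts), and 32 were higher and 0 lower at an adjusted p under 0.05. Over the 8094 genes tested outside the marking lists, 6.51% were higher and 5.55% lower. The median log2 fold change was 1.31 for the 45 genes and -0.01 for all genes. In 41 of the 45 tested genes every animal had the higher level in its S-marked nuclei, against 16.6% of the 8094 genes. In 31 of the 45 the S-marked values of all animals lay above all unmarked values, against 5.92%. Both held for the untested Mcm8 too. These 31 were not all among the 32 that passed the test. Brca2, Fanci, Mcm7, Pcna and Rfc3 passed although their values overlapped, and Cdt1, Chek1, Mcm2 and Mcm6 did not overlap without having passed. Of 28 other replication genes tested that do not serve in the marking lists, 18 were higher and 0 lower (median 0.92). Of 61 such other repair genes, 8 were higher and 0 lower (median 0.30).

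Of the origin licensing and firing genes, 10 of 13 tested were higher, with a median of 1.18. Orc1, Cdc6 and Mcm10 had 0, 4 and 1 transcripts in the unmarked nuclei of all animals together. Orc1, the subunit of the origin recognition complex that opens licensing (ENSMUSG00000028587, chr4:108436540-108473245, GRCm39), stood at 38.6, 18.9, 24.5 and 30.9 CPM in S-marked nuclei and was not counted in the unmarked nuclei of any animal. Over the unmarked nuclei of all animals together a count of 0 allows up to 4.34 CPM, so the pooled S-marked level was at least 6.30-fold higher (adjusted p = 0.000142). Cdc6, which loads the Mcm helicase (ENSMUSG00000017499, chr11:98798507-98814766), lay at 65.6, 80.8, 73.4 and 107 CPM in S-marked and 7.46, 9.95, 5.03 and 0 CPM in unmarked nuclei (log2 fold change 3.74 ± 0.48, SE, adjusted p = 1.09e-07). These groups were far apart in all 4 animals. Mcm10, which ties the helicase to the first polymerase, stood at 13.5, 15.5, 28.7 and 12.4 CPM against 0, 0, 5.03 and 0 CPM. The pooled ratio was 13.4 (95% counting interval 2.30 to 541, adjusted p = 0.00610). For Mcm8, a helicase of repair rather than of licensing, pooled counts of 37 and 3 transcripts gave a ratio of 3.38 (95% counting interval 1.07 to 17.1). Cdt1, Mcm2 and Mcm6 did not pass, with log2 fold changes of 0.65, 0.71 and 0.52.

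Synthesis, clamp and nucleotide genes were higher in 8 of 9 cases, with Rrm2, a subunit of ribonucleotide reductase, the exception (log2 fold change 1.83 ± 0.69, SE, adjusted p = 0.0747). Pola1, the catalytic subunit of the polymerase that starts each new strand, lay at 911, 816, 1015 and 932 CPM in S-marked and 321, 363, 417 and 323 CPM in unmarked nuclei (1.32 ± 0.10, SE, adjusted p = 8.76e-15). The lowest S-marked animal stood at 816 CPM and the highest unmarked one at 417 CPM. Rfc4, a subunit of the loader that places the Pcna clamp, was counted at 19.3, 36.1, 36.2 and 30.9 CPM against 7.46, 0, 10.1 and 6.33 CPM (2.40 ± 0.58, SE, adjusted p = 0.00285), a call that was lost without RP2 (log2 fold change 1.86). Among the chromatin and turnover genes 3 of 4 passed. Dtl, which marks Cdt1 for destruction in S phase, lay at 125, 108, 134 and 140.2 CPM against 14.9, 39.8, 20.1 and 31.6 CPM (2.17 ± 0.28, SE, adjusted p = 7.22e-08). No animal overlapped.

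Checkpoint genes split: 2 of 5 passed, namely Clspn and Atm. Clspn, the adaptor through which Atr activates Chek1, was at 305, 352, 265 and 406 CPM in S-marked and 37.3, 79.6, 126 and 44.3 CPM in unmarked nuclei (2.06 ± 0.19, SE, adjusted p = 1.45e-11). Atr, Chek1 and Wee1 did not pass. For Wee1, the kinase that holds Cdk1 inactive before mitosis, values of 32.8, 22.3, 7.45 and 35.1 CPM and 22.4, 29.9, 10.1 and 19.0 CPM overlapped (0.08 ± 0.47, SE, adjusted p = 0.943), and the sign turned without RP1 (-0.08) or RPC2 (-0.17).

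Homologous recombination and end joining genes were higher in 6 of 7 cases. Brip1, a helicase that binds Brca1, stood at 81.1, 61.9, 88.3 and 66.0 CPM against 7.46, 19.9, 25.1 and 12.7 CPM (2.07 ± 0.34, SE, adjusted p = 1.28e-05), and no animal overlapped. Bard1, the partner of Brca1 in its ubiquitin ligase, was the exception, at 23.2, 25.8, 55.3 and 30.9 CPM against 7.46, 19.9, 35.2 and 38.0 CPM (0.44 ± 0.38, SE, adjusted p = 0.526). Among the Fanconi genes Fanca and Fanci passed. Fanci, which pairs with Fancd2 on crosslinked DNA, was at 9.65, 13.7, 24.5 and 39.2 CPM against 7.46, 0, 10.1 and 0 CPM. Its pooled ratio from 3 unmarked transcripts was 5.02 (95% counting interval 1.63 to 25.1, adjusted p = 0.0351), and the call was lost with DESeq2, with a minimum of 2 list transcripts, without the animal as a block and without RP2, RPC1 or RPC2. Of the remaining genes, Slfn9, a member of the Schlafen family, was higher (77.2, 143, 138 and 175 CPM against 44.8, 39.8, 45.2 and 69.6 CPM, 1.42 ± 0.23, SE, adjusted p = 1.44e-05). Parp1, a sensor of single-strand breaks, overlapped at 63.7, 55.0, 43.6 and 74.2 CPM against 82.1, 39.8, 25.1 and 44.3 CPM (adjusted p = 0.519). Mgmt, which removes alkyl groups from guanine, was the single gene of the 46 with the lower S-marked value in every animal, at 5.79, 15.5, 18.1 and 6.19 CPM against 7.46, 19.9, 50.3 and 25.3 CPM, but it missed the threshold (-1.23 ± 0.45, SE, adjusted p = 0.0633). Unmarked values rest on few transcripts: in the smallest group a count of 0 still allows 22.4 CPM.

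**Figure D1:**
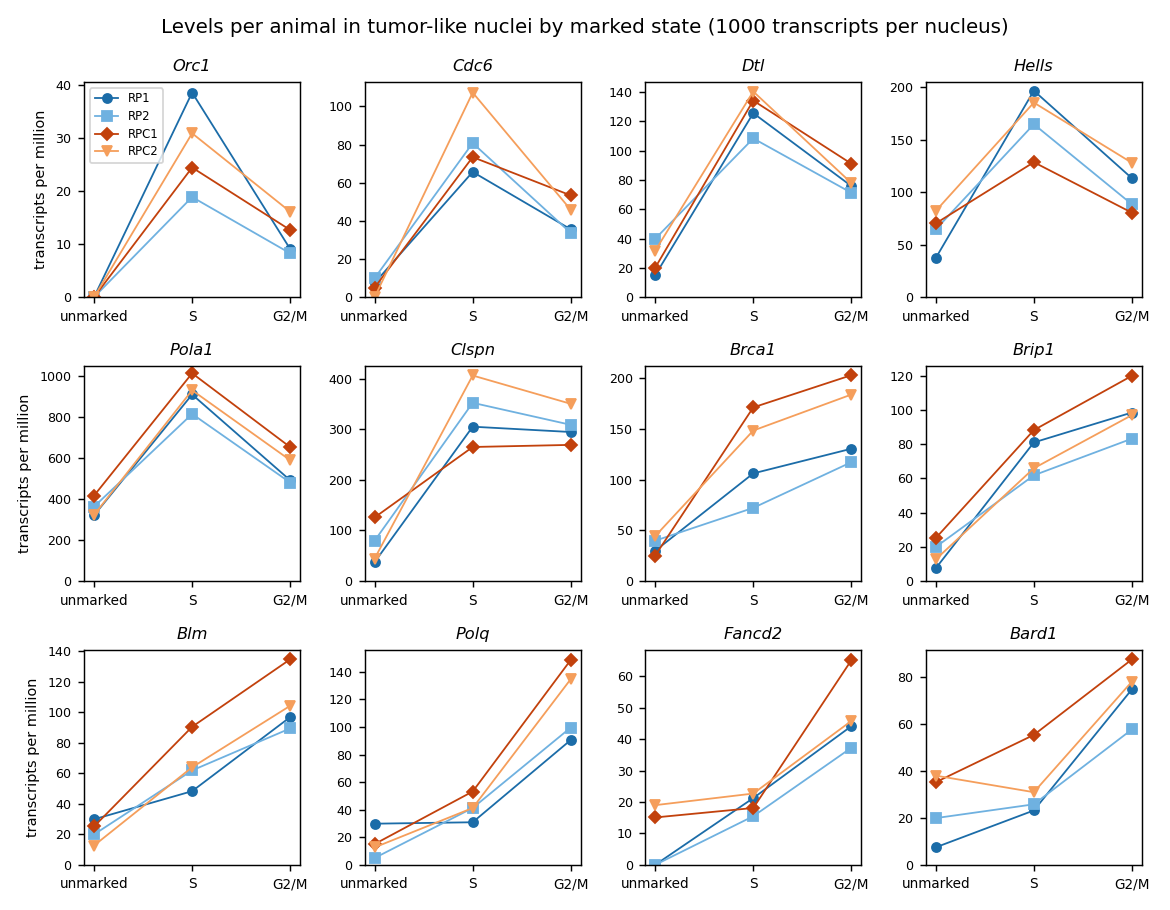
Level of 12 of the genes in CPM per animal (points) in unmarked, S-marked and G2/M-marked tumor-like nuclei, each nucleus thinned to 1000 transcripts. Pola1 and Clspn lay higher in S-marked than in unmarked nuclei in all 4 animals, and Polq was highest in G2/M-marked nuclei.

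S-marked and G2/M-marked nuclei differed in which of the genes they held more of, and the calls divided by role. The G2/M mark is not read here as a phase of the cycle. It was borne by 47.1% to 98.7% of the nuclei of each tumor-like cluster and by part of the non-tumor nuclei, whose shares are given below. This contrast was added after the first results were seen, because the unmarked group was small. In S-marked nuclei 15 genes were higher and 9 lower, against 4.39% and 4.53% of all 8094 genes, with a median log2 fold change of 0.23 over the members and 0.01 over all genes. The higher ones were Orc1, Cdc6, Mcm2, Mcm3, Mcm4, Mcm5, Mcm6, Gins1 and Ccne2 of the origin genes (9 of 13 tested), Pola1, Prim2, Pold1 and Pcna of the synthesis genes, and Dtl and Hells. The lower ones were Brca1, Bard1, Brip1, Blm and Polq of the recombination and end joining genes (5 of 7), Fanca, Fancd2 and Fanci of the Fanconi genes (3 of 4), and Wee1. No origin or synthesis gene was lower and no recombination, end joining or Fanconi gene was higher. In 21 genes all 4 animals had the higher level in S-marked nuclei, against 16.0% of all genes, and in 8 all 4 had the lower one, against 12.1%. G2/M-marked nuclei had the larger depth before thinning, given above, and in every animal a higher share of Rn18s-rs5 (2.56% to 9.55%, against 2.08% to 7.10% in S-marked nuclei), whose part in the contrast was not tested. With DESeq2 11 genes were higher and 4 lower, and in a fit without the animal as a block 4 were higher and 1 lower. In either direction these were 33.3% and 11.1% of the members, against 4.32% and 1.41% of all genes.

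On the S side, Cdc6 stood at 35.5, 33.7, 53.3 and 45.8 CPM in G2/M-marked nuclei, below all of its S-marked values (log2 fold change 0.90 ± 0.14, SE, adjusted p = 3.01e-06). Orc1 lay there at 9.08, 8.28, 12.7 and 16.1 CPM, again below every S-marked animal (1.23 ± 0.24, SE, adjusted p = 0.000166). Pola1 showed 492, 481, 654 and 590.1 CPM (0.72 ± 0.06, SE, adjusted p = 4.64e-14). Hells, a chromatin remodeler of dividing cells, was at 197, 165, 129 and 186 CPM in S-marked and 113, 88.6, 80.6 and 128 CPM in G2/M-marked nuclei (0.71 ± 0.09, SE, adjusted p = 9.25e-08).

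On the G2/M side, Polq, the polymerase of end joining by short homologies (ENSMUSG00000034206, chr16:36832108-36915779, GRCm39), had the strongest difference, at 30.9, 41.2, 53.2 and 41.2 CPM in S-marked and 90.6, 99.6, 149 and 135 CPM in G2/M-marked nuclei (-1.501 ± 0.13, SE, adjusted p = 4.88e-13). The lowest G2/M-marked animal lay far above the highest S-marked one. Fancd2, the central protein of the Fanconi pathway, was at 21.2, 15.5, 18.1 and 22.7 CPM against 44.1, 37.2, 65.1 and 45.8 CPM (-1.40 ± 0.21, SE, adjusted p = 8.26e-07). Bard1 reached 74.7, 57.7, 87.5 and 78.0 CPM in G2/M-marked nuclei (-1.06 ± 0.16, SE, adjusted p = 8.80e-07), and Blm, a helicase that takes recombination intermediates apart, 96.8, 89.4, 135 and 104 CPM (-0.67 ± 0.12, SE, adjusted p = 2.11e-05). Brca2 went the other way without passing, at 75.3, 75.6, 168 and 169 CPM in S-marked and 73.2, 66.5, 149.9 and 108 CPM in G2/M-marked nuclei (0.27 ± 0.10, SE, adjusted p = 0.102).

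**Figure D2:**
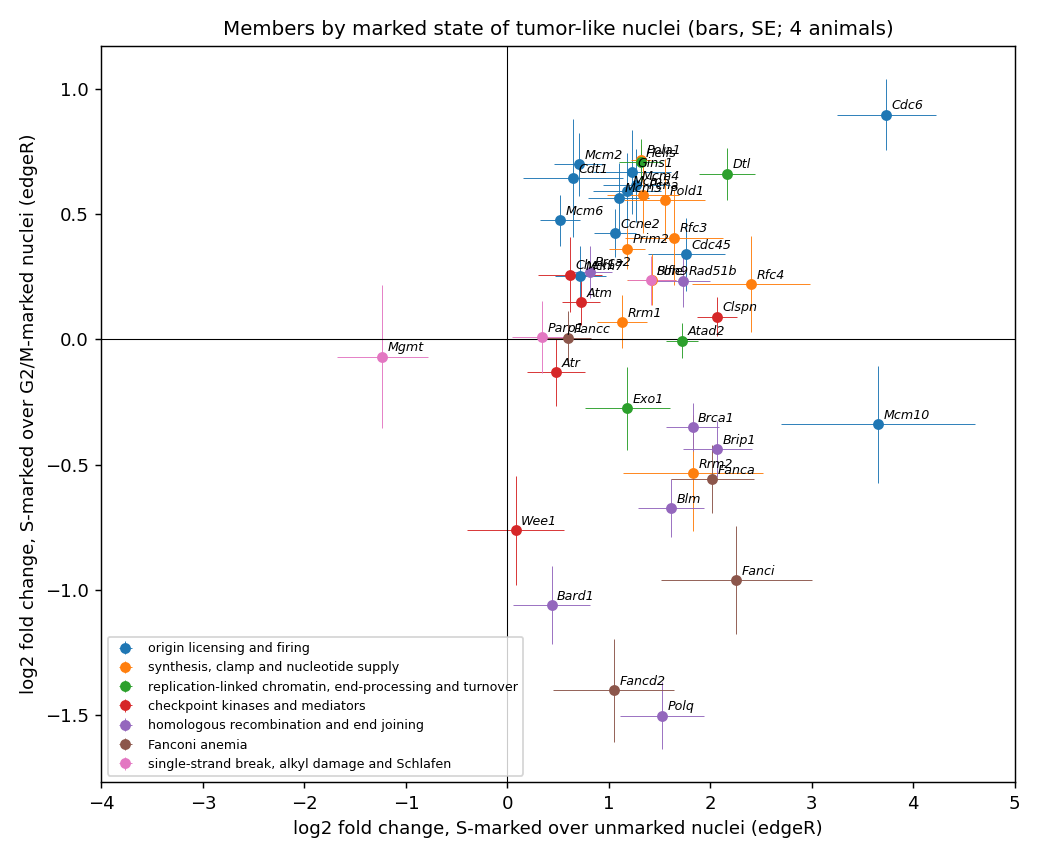
Log2 fold change of each gene in S-marked over unmarked nuclei (x axis) and in S-marked over G2/M-marked nuclei (y axis), colored by role, from edgeR (n = 4 animals). Origin genes lie above 0 on the y axis with the exception of Mcm10, and most recombination and Fanconi genes lie below it, with Polq lowest at -1.501. Orc1 and Mcm8 are not shown.

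The promoters of the genes on either side of this split were read to show how they differ in letters. Sequences were taken from RefSeq on build GRCm38.p6, another build than that of the counts, and 37 of the 46 genes matched by symbol (not Mcm4, Gins1, Ccne2, Prim2, Pole, Atad2, Exo1, Wee1 and Fancd2). In windows from 250 bases before to 50 bases after the start, both strands were searched for the E2F motifs TTTCCCGC, TTTCGCGC, TTTGCCGC and TTTGGCGC and for TTTGAA, the core of the CHR element that is known from genes of G2 and mitosis. TTTGGCGC on a strand can overlap TTTCGCGC on the other in the letters GCGC, as in Mcm6. An E2F motif was found in 16 of the 37 genes (43.2%), against 704 of the 27025 genes of the table (2.605%), 5 of 17 genes of the S-phase list (29.4%) and 3 of 46 of the G2/M list (6.52%). Among genes higher in S-marked than in G2/M-marked nuclei it was found in 9 of 11 (81.8%), among those lower in 1 of 7 (14.3%), and among the others in 6 of 19 (31.6%). TTTGAA was found in 1 of 11, 2 of 7 and 2 of 19 of these genes, in 20.2% of all genes and in 32 of 46 genes of the G2/M list (69.6%). A match describes letters and no binding.

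The 150 bases before the start, 5′ to 3′ on the strand of the gene, are shown for 5 genes of the S side that hold an E2F motif in them (in capitals) and for 3 genes of the G2/M side that hold none, because they show this contrast.
Orc1, chr4:108579304-108579453, plus strand: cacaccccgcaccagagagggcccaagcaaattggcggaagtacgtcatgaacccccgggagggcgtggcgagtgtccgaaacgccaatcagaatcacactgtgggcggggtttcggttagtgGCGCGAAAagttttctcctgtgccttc
Cdc6, chr11:98908001-98908150, plus strand: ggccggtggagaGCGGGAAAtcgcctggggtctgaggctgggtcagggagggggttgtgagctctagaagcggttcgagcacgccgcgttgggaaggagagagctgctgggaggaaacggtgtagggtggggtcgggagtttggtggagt
Mcm6, chr1:128359706-128359855, minus strand: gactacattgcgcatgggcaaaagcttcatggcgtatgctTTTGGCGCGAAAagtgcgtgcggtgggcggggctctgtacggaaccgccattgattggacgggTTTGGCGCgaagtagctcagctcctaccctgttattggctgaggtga
Dtl, chr1:191575545-191575694, minus strand: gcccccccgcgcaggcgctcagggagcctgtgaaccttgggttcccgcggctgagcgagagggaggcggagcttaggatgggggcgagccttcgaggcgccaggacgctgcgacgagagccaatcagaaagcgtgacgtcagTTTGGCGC
Hells, chr19:38930840-38930989, plus strand: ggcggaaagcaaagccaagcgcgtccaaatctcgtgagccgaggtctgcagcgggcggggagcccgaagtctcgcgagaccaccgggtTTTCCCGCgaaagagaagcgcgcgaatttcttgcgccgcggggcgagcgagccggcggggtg
Polq, chr16:37011636-37011785, plus strand: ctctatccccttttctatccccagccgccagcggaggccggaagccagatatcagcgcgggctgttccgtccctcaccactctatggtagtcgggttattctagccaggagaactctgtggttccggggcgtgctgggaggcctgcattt
Blm, chr7:80534999-80535148, minus strand: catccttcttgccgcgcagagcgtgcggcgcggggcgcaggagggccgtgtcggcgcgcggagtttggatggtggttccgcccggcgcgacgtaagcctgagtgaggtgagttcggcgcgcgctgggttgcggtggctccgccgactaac
Brip1, chr11:86201194-86201343, minus strand: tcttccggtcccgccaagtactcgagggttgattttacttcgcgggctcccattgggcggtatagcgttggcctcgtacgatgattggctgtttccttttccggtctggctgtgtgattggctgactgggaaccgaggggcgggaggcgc
Among these genes the motif of Dtl begins 8 bases before the start, that of Orc1 27, that of Hells 62 and that of Cdc6 138. Mcm6 holds 3 matches, the first of which overlaps the second.

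RPC tumors were compared with RP tumors to ask whether loss of Casp8 went along with a change in these genes. No gene of the 46 passed the threshold in tumor-like nuclei (0 of 46; 0% of 20090 genes tested, edgeR). At an unadjusted p under 0.05 there were 8 of the 46 (17.4%) and 3056 of all genes (15.2%). On simulated data this fit recovered 14 of 100 genes changed 2-fold and 74 of 100 changed 4-fold. Fold changes of RPC over RP on the log2 scale had a median of 0.25 over the 46 genes, with 34 above 0, and of -0.01 over all genes. In 24 genes both RPC animals lay above both RP animals and in 5 both lay below, against 24.8% and 25.6% of all genes in either direction. RP2 was the lowest animal in 25 of the 46 genes and RPC1 the highest in 23. Over all 20090 genes RP2 was lowest in 4753 and RPC1 highest in 5854. Of 12 marker lists of other cell types, 4 summed higher in the tumor-like nuclei of both RPC animals and 2 lower. Higher were the ciliated markers (78.4, 79.0, 148 and 138 CPM, both RP animals first), the club markers (19.9, 41.5, 67.6 and 77.6 CPM), the smooth muscle or pericyte markers (94.8, 89.8, 202 and 121 CPM) and the alveolar type 2 markers (104 to 128 CPM), and lower were the fibroblast (29.6 to 65.6 CPM) and B cell markers (11.4 to 20.01 CPM). The neuroendocrine sums given above were also higher in both RPC animals. The part of these in the genotype contrast was not tested. DESeq2, the tool of the study, called 3 of the 46 (Brca2 and Polq higher, Pold1 lower in RPC; adjusted p = 0.0169, 0.0299 and 0.0272) and 3.70% of all genes (1.77% higher and 1.94% lower).

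By role, homologous recombination and end joining genes stood highest but for the 3 genes of the mixed role. Their median was 0.42, and 6 of 7 genes had both RPC animals above both RP animals, with none passing. This was so for 24.8% of all 20090 genes tested. Among the synthesis genes 6 of 9 had both RPC animals above and 2 both below. Brca2, a mediator of homologous recombination (ENSMUSG00000041147, chr5:150446057-150496080), was at 72.3, 63.9, 142 and 112 CPM (log2 fold change 0.90 ± 0.18, SE, adjusted p = 0.272). Its RPC animals lay well above the RP animals. Polq stood at 74.4, 66.6, 117 and 113 CPM (0.71 ± 0.14, SE, adjusted p = 0.269) and Brca1 at 115, 90.2, 162 and 154 CPM (0.62 ± 0.17, SE, adjusted p = 0.281), each without overlap. Bard1 (59.98, 46.0, 73.5 and 67.8 CPM, 0.41 ± 0.18) and Brip1 (78.5, 60.4, 103 and 83.0 CPM, 0.42 ± 0.20) were closer together, with adjusted p of 0.358 and 0.381. Rad51b was the gene of this role with a negative value, and its animals overlapped (128, 84.1, 119.9 and 77.7 CPM).

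Synthesis genes, with a median of 0.22, lay on both sides. Pold1, the catalytic subunit of polymerase delta (ENSMUSG00000038644, chr7:44182168-44198349), was the gene with the lowest fold change of the 46, at 49.8, 38.0, 24.5 and 22.5 CPM (-0.90 ± 0.20, SE, adjusted p = 0.274). Rfc3, a subunit of the clamp loader, lay the other way at 21.4, 19.8, 30.7 and 32.0 CPM (0.60 ± 0.16, SE, adjusted p = 0.281). Origin genes had a median of 0.04 with 8 of 14 positive. Within them Ccne2, a cyclin of the entry into S phase, was at 107, 105, 159 and 121 CPM (0.41 ± 0.17, SE, adjusted p = 0.349) and Orc1 at 9.37, 8.89, 10.9 and 14.2 CPM (0.46 ± 0.24, SE, adjusted p = 0.410), neither with overlap.

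Checkpoint genes had a median of 0.29, chromatin and turnover genes 0.09 and Fanconi genes 0.11. Fancd2 was at 35.9, 29.0, 49.98 and 43.0 CPM (0.52 ± 0.19, SE, adjusted p = 0.312), without overlap. Parp1 (ENSMUSG00000026496, chr1:180396443-180431307) was lower in both RPC animals, at 76.5, 69.4, 41.2 and 50.4 CPM (-0.67 ± 0.17, SE, adjusted p = 0.274). Slfn9 was higher in both, at 60.7, 102, 127 and 134 CPM (0.68 ± 0.27, SE, adjusted p = 0.328), with RP1 far below the other 3 animals. Slfn9 has close relatives in the genome, and how reads shared between them were counted is not given in the sources used here. Mgmt had the widest fold change and the widest spread, at 4.50, 13.6, 29.2 and 7.49 CPM (1.02 ± 0.80, SE, adjusted p = 0.557). It rested on RPC1, since without that animal the value was -0.27.

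**Figure D3:**
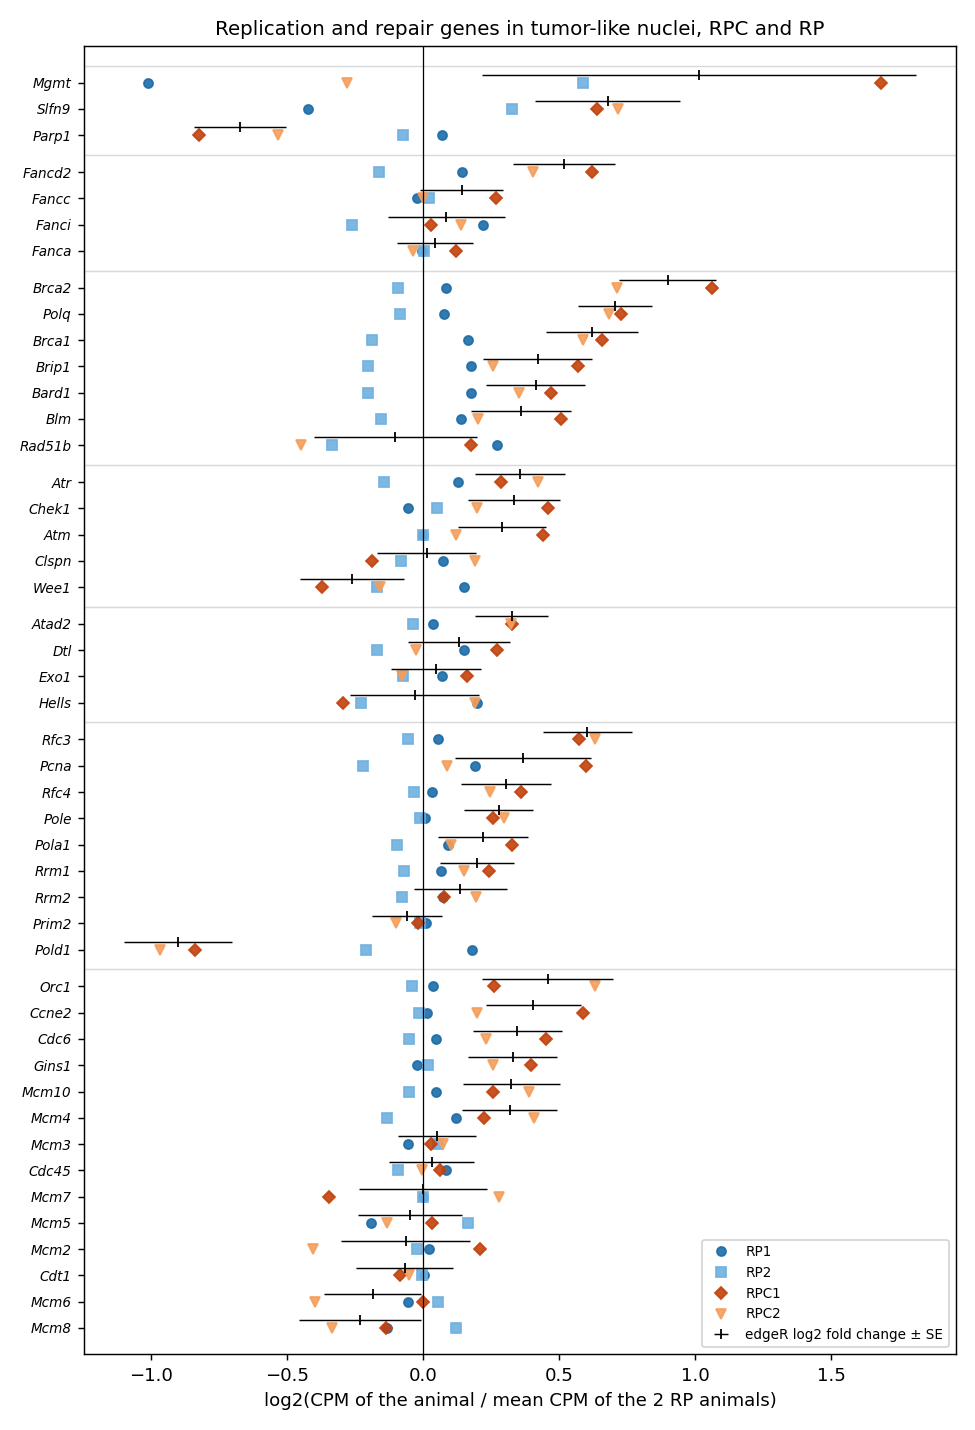
Level of each gene in tumor-like nuclei as log2 of the CPM of an animal over the mean of the RP animals, grouped by role, with the edgeR log2 fold change of RPC over RP and its SE as a black tick and bar (n = 2 per genotype). Brca2, Brca1 and Polq show both RPC animals above both RP animals, Pold1 and Parp1 show both below, and no gene passed the threshold.

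Other genes of the same pathways were counted from lists: of 78 other repair genes 0 passed, 31 had RPC above RP and 10 below in all animals (median 0.15), and of 47 other replication genes 0 passed, with 24 above and 7 below (median 0.18). Over all 20090 genes tested 0% passed, 24.8% lay above and 25.6% below in this way. Ercc2, a helicase of nucleotide excision repair, was at 26.1, 31.7, 12.3 and 12.5 CPM (-1.22 ± 0.19, SE, adjusted p = 0.267), lower in both RPC animals. Rad18, which marks Pcna at stalled forks, stood at 58.8, 61.7, 129 and 82.0 CPM (0.81 ± 0.24, SE) and Lig4, the ligase of end joining, at 2.89, 3.02, 4.87 and 5.04 CPM (0.75 ± 0.27, SE). Pold2, the partner subunit of Pold1, was also lower in both RPC animals, at 14.8, 13.5, 8.11 and 9.06 CPM (-0.73 ± 0.22, SE). Orc5 and Rpa3, subunits of the origin recognition complex and of the single-strand binding complex, were at 41.5, 39.9, 74.0 and 53.3 CPM and 13.1, 12.03, 23.2 and 15.6 CPM. Of 8 other Schlafen genes 4 were tested and 0 passed. Slfn2 was at 0.600, 1.11, 0.386 and 0.240 CPM (-1.43 ± 0.50, SE) and Slfn8 at 1.01, 1.03, 1.43 and 1.20 CPM.

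Tumor-like nuclei of the 4 animals differed in their marks. S-marked nuclei made up 8.16%, 8.93%, 10.4% and 5.88% of tumor-like nuclei at 1000 transcripts, with RPC1 highest and RPC2 lowest. The difference of RPC minus RP was -0.389 percentage points (exact permutation test, two-sided, p = 1, smallest p possible 0.333), and it was positive without RPC2 (1.89) or with a minimum of 4 list transcripts (0.376). Among non-tumor nuclei with low neuroendocrine RNA the S-marked share was 1.72%, 2.37%, 3.50% and 0.832%. G2/M-marked nuclei made up 60.7%, 55.6%, 59.5% and 69.9% (difference 6.55 points, exact permutation test, two-sided, p = 0.667), but 24.3% to 37.4% of the non-tumor nuclei bore this mark too, so it is not read here as cycling. Nuclei with fewer than 1000 transcripts (790, 738, 129 and 432) were left out of these shares. Without thinning the S-marked shares were 10.5%, 11.4%, 11.1% and 6.12%.

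**Figure D4:**
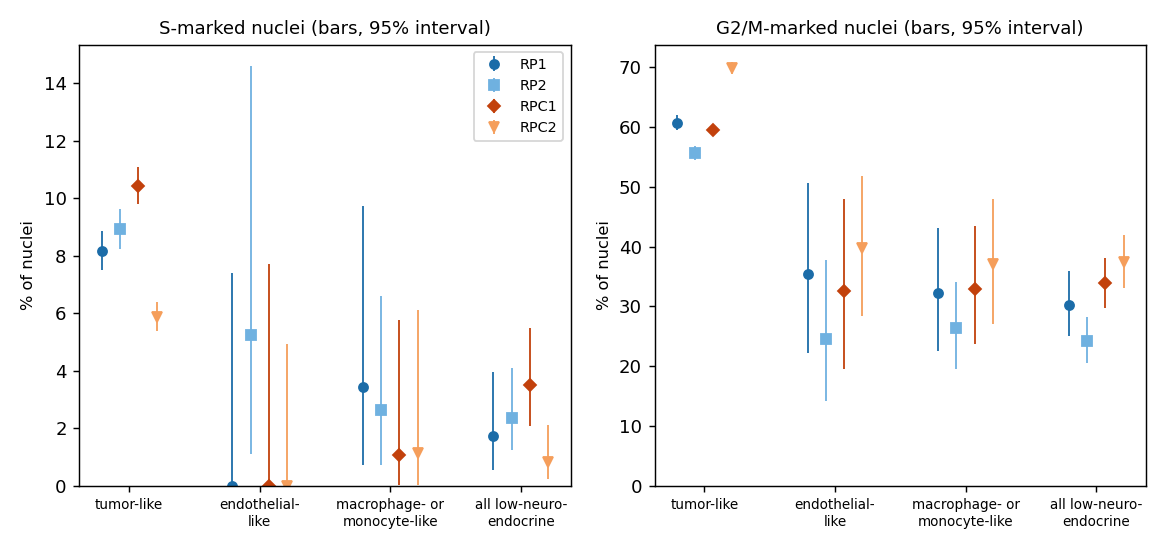
Share of S-marked and of G2/M-marked nuclei in percent for each animal at 1000 transcripts, in tumor-like, endothelial-like, macrophage- or monocyte-like and all non-tumor nuclei, the last 3 with low neuroendocrine RNA. Bars on the points are 95% exact binomial intervals, which cover counting error only. Among tumor-like nuclei RPC2 has the lowest S-marked and the highest G2/M-marked share.

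Within S-marked nuclei alone, RPC was again compared with RP. Of 43 genes tested 0 passed (0 with DESeq2), against 0.104% of 7728 genes, and 6 (13.95%) had an unadjusted p under 0.05, against 10.7%. The median was 0.10 against -0.00 over all genes. For Brca2 the log2 fold change there was 1.11 ± 0.21 (SE, adjusted p = 0.290), from 75.3, 75.6, 168 and 169 CPM, with no overlap between the genotypes. In unmarked nuclei 11 genes were tested and 0 passed (0% of 3991 genes; 0 at an unadjusted p under 0.05 and 0 with DESeq2). Their median of 0.21 turned to -0.07 without RPC1. The interaction of genotype with the S mark, which asks whether the genotypes differ in the contrast of S-marked with unmarked nuclei, passed for 0 of 45 genes (0 with DESeq2) and 0% of 8094 genes, with 1 (2.22%) at an unadjusted p under 0.05 against 5.52%. The same interaction against G2/M-marked nuclei passed for 0 of 45 genes, with 6 (13.3%) at an unadjusted p under 0.05 against 3.66% of all genes (edgeR, DESeq2 was not run for it).

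At the fixed depth of 1000 transcripts, the percentage of tumor-like nuclei with a transcript of Brca2 was 6.71, 5.83, 12.6 and 9.97, and among non-tumor nuclei with low neuroendocrine RNA it was 5.15, 2.96, 6.81 and 3.12. For Polq the percentages were 5.83, 6.04, 8.95 and 9.41 among the tumor-like and 1.72, 1.18, 3.31 and 1.46 among the low-neuroendocrine nuclei. Both genes lay higher in tumor-like nuclei in every animal. Among the tumor-like nuclei both RPC animals lay above both RP animals. Among the low-neuroendocrine nuclei RPC2 lay below RP1 for both genes. The cell types in this set differed between animals. Before nuclei below 1000 transcripts were left out, it held 15, 77, 234 and 74 club nuclei. Alveolar type 1 nuclei numbered 30, 49, 20 and 114. The part of this mixture in the differences between animals was not tested. Tumor-like percentages were 9.46, 8.01, 14.1 and 13.5 for Brca1 and 5.50, 8.79, 11.4 and 12.1 for Slfn9. They were 4.60, 3.74, 2.41 and 2.24 for Pold1 and 6.21, 6.26, 4.05 and 5.01 for Parp1, lower in both RPC animals as in the sums. The share for Mgmt, 0.441, 1.37, 2.39 and 0.788%, lay below that in the low-neuroendocrine nuclei (4.47, 2.37, 4.86 and 3.33%), which include the macrophage- or monocyte-like nuclei, and how much of it came from other nuclei was not tested. All 46 genes together gave a mean of 3.49, 3.41, 4.32 and 4.04 transcripts per tumor-like nucleus, and a mean of 1.48, 1.68, 2.83 and 1.63 in the low-neuroendocrine nuclei. Both RPC animals lay above both RP animals in tumor-like nuclei (smallest exact permutation p possible 0.333).

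Endothelial-like nuclei (93, 154, 91 and 174) and macrophage- or monocyte-like nuclei (157, 317, 183 and 177) served as the normal classes. Both carried neuroendocrine RNA: the 14 neuroendocrine markers reached 65.0% to 82.1% of the tumor-like level in endothelial-like and 56.6% to 74.1% in macrophage- or monocyte-like nuclei, and the summed 46 genes 71.0% to 83.3% and 83.3% to 91.6%. Sub-clusters with a median neuroendocrine marker below 50% of the tumor-like level were therefore compared as well, a choice made after the data were seen (56, 93, 49 and 91 endothelial-like and 103, 184, 96 and 102 macrophage- or monocyte-like nuclei). In these the neuroendocrine markers still stood at 21.1% to 25.8% and 9.07% to 33.5% of the tumor-like level, and the 46 genes at 29.4% to 42.4% and 49.5% to 62.4%. The other sub-clusters had medians of 3262 to 19191 transcripts per nucleus (endothelial-like) and 8070 to 11475 (macrophage- or monocyte-like). Low-neuroendocrine ones had 1313 to 1834.5 and 1573.5 to 2706. Low-neuroendocrine nuclei gave 114223, 146640, 119900 and 151704 of the 469361, 852956, 846644 and 1448633 endothelial-like transcripts. They gave 292910, 422758, 368563 and 265835 of 1007428, 1980892, 1721116 and 1846061 macrophage- or monocyte-like ones. How much of the member RNA in the normal classes came from tumor nuclei was not tested.

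With the animal as a block, tumor-like nuclei held more of the genes than either class. Against all endothelial-like nuclei 15 of 46 genes were higher and 0 lower (7.51% and 8.87% of 16794 genes), with a median log2 fold change of 0.36 against 0.09 over all genes. Against the low-neuroendocrine endothelial-like nuclei 37 were higher and 0 lower (18.9% and 10.7% of 15737 genes, median 1.71 against 0.44). Against all macrophage- or monocyte-like nuclei 19 were higher and 2 lower (14.6% and 15.7% of 17156 genes, median 0.30 against 0.07), and against the low-neuroendocrine ones 32 higher and 2 lower (23.3% and 17.0% of 16384 genes, median 1.04 against 0.28). The 14 neuroendocrine markers had medians of 2.21 and 2.56 in the low-neuroendocrine comparisons. Without the animal as a block 2 and 0 of the 46 genes (4.35% and 0%) passed against all nuclei of these classes. Over all genes 5.46% and 12.6% passed there, so the members were not called more often. Against all macrophage- or monocyte-like nuclei 12 passed without RP1 and 12 without RPC1. These were 26.1% of the members each time, against 25.5% and 25.4% of all genes.

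Ccne2 was among the genes furthest apart, at 103, 104, 164 and 122 CPM in tumor-like, 8.75, 20.5, 33.4 and 26.4 CPM in low-neuroendocrine endothelial-like (2.64 ± 0.36, SE, adjusted p = 2.04e-12) and 6.83, 33.1, 40.7 and 26.3 CPM in low-neuroendocrine macrophage- or monocyte-like nuclei (2.27 ± 0.27, SE, adjusted p = 1.25e-06). Pola1 was at 525, 472, 659.9 and 553 CPM in tumor-like nuclei, 123, 177, 242 and 165 CPM in the first (1.84 ± 0.21, SE) and 259, 244, 301 and 339 CPM in the second (1.04 ± 0.18, SE). All tumor-like values of both genes lay above all values of the classes. Clspn stood at 264, 243, 235 and 298 CPM, 43.8, 109, 33.4 and 46.1 CPM and 81.9, 92.3, 70.5 and 82.8 CPM in the same order. Atr, the kinase that responds to stalled forks, had the smallest of the 46 fold changes against the endothelial-like nuclei and passed in neither comparison (log2 fold changes 0.38 ± 0.33 and 0.41 ± 0.24, SE).

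Rad51b and Mgmt were the 2 genes lower in tumor-like than in macrophage- or monocyte-like nuclei. Mgmt lay at 4.35, 13.5, 30.1 and 7.55 CPM in tumor-like and 85.3, 30.8, 119 and 60.2 CPM in low-neuroendocrine macrophage- or monocyte-like nuclei (-2.48 ± 0.37, SE, adjusted p = 1.89e-05), and each class value was above the tumor-like value of its animal. The class mean was 533% of the tumor-like mean. Rad51b was at 124, 83.3, 124 and 78.3 CPM and 150.2, 173, 456 and 214 CPM, where the mean was 243% of the tumor-like mean (-1.11 ± 0.22, SE, adjusted p = 0.000389), with RPC1 far above the other animals. In low-neuroendocrine endothelial-like nuclei Rad51b was lower than in tumor-like nuclei, at 96.3, 61.4, 50.04 and 26.4 CPM (1.02 ± 0.30, SE, adjusted p = 0.00291).

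**Figure D5:**
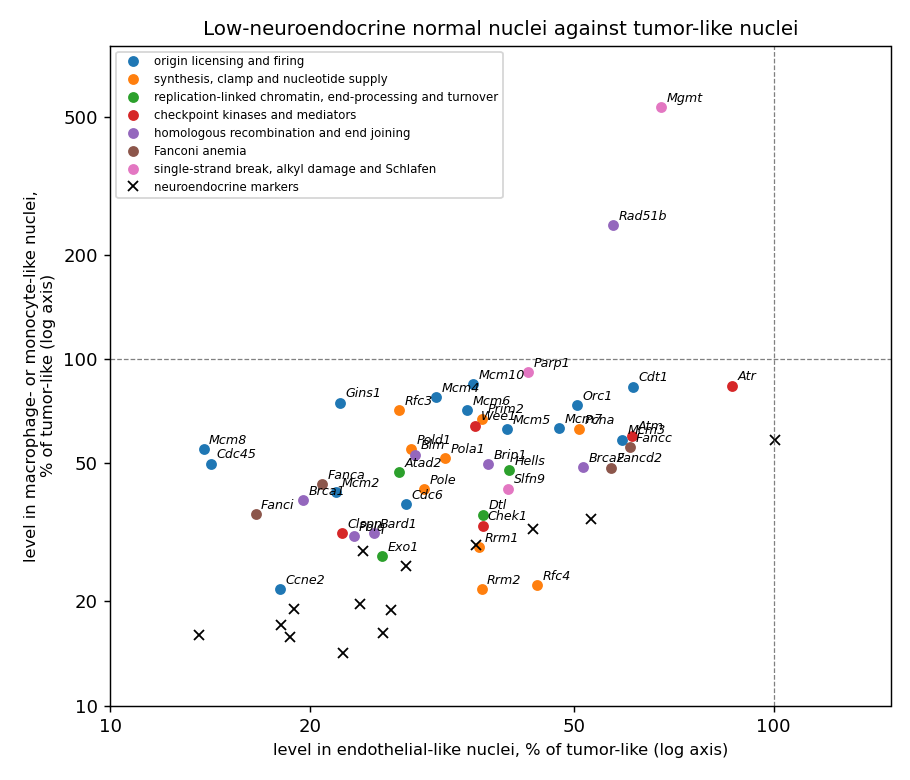
Level of each gene in low-neuroendocrine endothelial-like nuclei (x axis) and macrophage- or monocyte-like nuclei (y axis) as a percentage of its tumor-like level, both on log axes, with neuroendocrine markers as crosses. Most genes lie below 100% on both axes, and Mgmt and Rad51b lie above it on the y axis, at 533% and 243%.

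Within the normal classes the genotypes were compared in the same way. In endothelial-like nuclei 0 of 44 genes passed (0 with DESeq2) against 0.0622% of 9639 genes, with a median of 0.23 against -0.01, and 7 (15.9%) had an unadjusted p under 0.05, against 12.6%. In macrophage- or monocyte-like nuclei 0 of 46 passed (0 with DESeq2) against 0.00832% of 12017 genes, with a median of 0.16 against 0.01, and 6 (13.04%) had an unadjusted p under 0.05, against 10.7%. Recombination and end joining genes had medians of 0.63 and 0.42 in these classes, against 0.42 in tumor-like nuclei, while the classes held neuroendocrine RNA as given above. In the low-neuroendocrine sub-clusters 0 of 3 and 0 of 25 genes passed (0.161% of 3115 and 0% of 6137 genes, edgeR), and 0 of 3 and 3 of 25 had an unadjusted p under 0.05, against 12.4% and 10.3% of all genes. Their medians of 0.28 and -0.07 were taken over fewer genes than in all nuclei of these classes. Without RPC2, 1 of the 46 genes (2.17%) passed in macrophage- or monocyte-like nuclei, against 3.86% of 12861 genes.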

How the data were processed

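Nuclei of 4 tumors (2 RP, 2 RPC) were measured by combinatorial barcoding of nuclear RNA. The authors aligned reads to GRCm39 and deposited counts of unique transcripts per nucleus and gene, 1 table per animal. Introns contribute to nuclear counts, so levels were not compared between genes. The 46 genes and all gene lists were chosen with earlier results of these data known.

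Nuclei with at least 300 counts, at most 10% mitochondrial counts and at most 12000 genes were kept (38254 of 38353). Log-scaled counts of 2000 variable genes gave 20 principal components, 20 neighbors and Leiden clusters (resolution 0.4; alternative 0.8; seed 1; leidenalg 0.10.2). No doublet caller was run. Clusters were named from 13 marker lists by a score rule that was set after the clusters had been seen, and 1929 nuclei (median 977 transcripts) stayed unnamed.

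Transcripts were summed per animal and class or state and tested by quasi-likelihood in edgeR 4.0.16 (R 4.3.3; TMM, filter on low counts, Benjamini-Hochberg over all genes tested, threshold 0.05), with the animal as a block between states and classes. DESeq2 1.42.0 was the alternative. SE is the log2 fold change divided by the root of F. For states and shares each nucleus was thinned to 1000 transcripts. The tests were tried on simulated data. Shares were compared by exact permutation over animals, for which the smallest two-sided p is 0.333. Binomial intervals and floors of 3 counts cover counting error only. Each genotype has 2 animals. The p-values between genotypes rest on the spread between animals of a genotype, with dispersions shared over genes. Those between states and classes, with the animal as a block, rest on the spread of the differences within animals.

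Members named for the genotypes were those that passed or, up to 12, those without overlap that had the largest fold changes. For the states they were the 8 largest and 4 smallest changes of S-marked over unmarked nuclei. Slfn9 and Mgmt were named in each. Other genes, such as Pola1, Atad2 and those of the S against G2/M contrast, were chosen after their values were seen. That contrast, the low-neuroendocrine sub-clusters and thinning without ribosomal and mitochondrial RNA were added after seeing the data. Over all genes replicate numbers did not pair the animals across genotypes (correlation of deviations -0.04 over 20090 genes). Over the members alone this correlation was -0.50, and its part in the contrast was not tested.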

Additional observations from a re-analysis of the deposited data

Results flagged for a closer look

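Mcm8, a helicase gene of repair, was flagged because it was untested and the RP and RPC animals lay on opposite sides of 0. Tested genes with such a split were not flagged and are given under other observations. The level in S-marked minus that in G2/M-marked tumor-like nuclei was -0.353 and -2.81 CPM in the RP animals and 3.20 and 11.6 CPM in the RPC animals. The mean of the RPC animals exceeded that of the RP animals by 8.98 CPM. These levels rest on 6, 8, 13 and 10 transcripts in the S-marked nuclei of RP1, RP2, RPC1 and RPC2. The difference was not tested, because Mcm8 was too low to enter the fit.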

How the results depend on the processing

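For RPC against RP in tumor-like nuclei, DESeq2 called 3 members and 744 genes, and 4 genes passed without a filter on low counts. The replicate block gave a median of 0.249 with 0 members called. Member medians for the genotypes were as follows. In endothelial-like nuclei they were 0.294 without a filter, 0.277 in low-neuroendocrine sub-clusters and 0.202 to 0.420 leaving out 1 animal. In macrophage- or monocyte-like nuclei they were -0.066 in the sub-clusters and 0.121 to 0.292 leaving out 1 animal, with 0 to 1 members called. In S-marked nuclei they were 0.157 without a filter (1 called, 2.17% of the members against 1.24% of 20368 genes), 0.183 with a minimum of 2 list transcripts and 0.122 to 0.197 leaving out 1 animal. In unmarked nuclei they were -0.046 without a filter and -0.071 to 0.302 leaving out 1 animal. For S-marked against unmarked nuclei the median was 1.16 with a minimum of 2 and 1.45 without a filter. The 32 calls came to 25 with DESeq2, 22 without the replicate block and 22 to 30 leaving out 1 animal (22 without RPC1). Over all genes 9.65%, 2.48% and 8.16% to 9.42% were called in these fits. Against G2/M-marked nuclei the median was 0.118 with a minimum of 2, 0.289 with a minimum of 4 and 0.184 to 0.243 leaving out 1 animal. There 15 members were called by DESeq2 (11 higher, 4 lower) and 5 without the replicate block (4 higher, 1 lower), against 4.32% and 1.41% of all genes. Tumor-like against endothelial-like nuclei gave 24 calls without a filter, 2 without the replicate block and 37 in the sub-clusters (median 1.71). Over all genes 9.15%, 5.46% and 29.6% were called in these fits. Against macrophage- or monocyte-like nuclei there were 34 calls without a filter (median 0.441), 0 without the replicate block, 34 in the sub-clusters (median 1.04) and 12 to 19 leaving out 1 animal. The shares of all genes called there were 17.6%, 12.6%, 40.3% and 23.7% to 28.4%. The difference in the S-marked share was 0.376 points with a minimum of 4 and -2.67 to 1.89 leaving out 1 animal. Leaving out 1 animal, the fold change of Mgmt between genotypes ran from -0.27 to 2.03, its share difference from -0.115 to 1.48 points, and the fold change of Wee1 (S-marked over unmarked) from -0.17 to 0.37, negative also without RP1 (-0.08). The causes of these changes were not tested. The block between genotypes changed no other call. Depth limits the unmarked nuclei, where a count of 0 allows up to 22.4 CPM, and the low-neuroendocrine sub-clusters, where 3 and 25 members could be tested between genotypes.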

Other observations

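Rrm1, Atad2, Exo1, Atr, Parp1 and Mgmt also had S-marked minus G2/M-marked levels of opposite sign in the RP and the RPC animals. For Rrm1, a subunit of ribonucleotide reductase, the values in CPM were 16.03 (RP1), 15.8 (RP2), -2.62 (RPC1) and -4.79 (RPC2), and in the same order for Atad2, a chromatin factor of replicating cells, 20.3, 16.6, -16.4 and -8.43 CPM. Such a split was seen in 6 of the 45 members tested (13.3%) and in 8.97% of all 8094 genes. None of the 6 genes passed the test of the interaction of genotype with these states (edgeR quasi-likelihood, adjusted p = 0.998 for each).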
